A study of Mus musculus with 12 samples.

Results

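The 53 genes described here encode the proteins that carry a cell through mitosis, from cyclin B and its kinase to the kinetochore, the spindle, the midzone and the condensins. They were chosen by name, and each symbol was matched to a single Ensembl identifier in both count tables. All 53 were found among the 55357 gene identifiers of each table. RNA was sequenced in 12 libraries in 4 groups of 3. Of these, 6 held RNA of RAW264.7 cells, macrophages of a mouse line that proliferates in culture, labelled wild type (WT). These cells were exposed for 24 hours to 25 µg/mL of oxidized low-density lipoprotein carrying the dye DIL (DIL-oxLDL), either with DMSO or with 40 µg/mL esculetin, a plant coumarin. The other 6 libraries came from livers of WT C57BL6/J male mice of 8 to 9 weeks, gavaged daily for 7 days with 2.5% Tween-80 or with 90 mg/kg/d esculetin. All of these mice ate a control diet (10% kcal from fat) for 4 days and then a high-fat diet (HFD, 60% kcal from fat) for 3 days. Per the study, each liver sample pooled 2 mice. Nothing in the sources says that the cell libraries came from separate cultures, so the p-values measure the spread between these libraries, which may be technical.

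At the onset of mitosis, cyclin B activates the kinase Cdk1, and chromosomes condense and attach through their kinetochores to the spindle. The spindle assembly checkpoint holds back the anaphase-promoting complex (APC/C) until all chromosomes are attached. Cdc20 then activates the APC/C, securin and cyclin B are destroyed, and the sister chromatids separate. Most of these genes are transcribed in a wave late in the cell cycle, so RNA levels in a culture depend on how many cells are cycling, whereas most cells of an adult liver are quiescent. The comparison asks which of them differed with esculetin in the lipid-loaded macrophages and in the liver. In bulk RNA, fewer cells in mitosis and less of each RNA per cell cannot be told apart.

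Levels are given as CPM, read counts scaled to a fixed library total after TMM correction, for replicates 1, 2 and 3 in that order. Fold changes are on the log2 scale, esculetin minus control, and a call needed an adjusted p-value below 0.05. In each role group, single-library values in the cells are given for the gene with the highest CPM in the controls, those with the largest and smallest falls, and any gene not called. CPM are not scaled to transcript length, and gene positions are on GRCm39. The libraries held 13752842 to 20346460 counts. Markers matched the labels: a list of 6 macrophage genes summed to 2077 to 7435 CPM in the cells, where 6 hepatocyte genes summed to at most 0.366 CPM and Ttr, Apoa1 and Cps1 were at 0. The hepatocyte list summed to 106259 to 133703 CPM in the liver. Within the liver controls, the deviation of a library from its group mean rose with transcript length in replicate 1 (Spearman's rho across 12791 genes, which are not independent, 0.341) and fell in replicate 3 (rho -0.379).

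In the RAW264.7 cells, mitotic RNAs fell together with esculetin. All 53 genes passed the count filter and all 53 had a log2 fold change below 0, beside 6738 of the 13277 tested genes. Of the 53, 50 were called lower and 0 higher, against 29% of the 13277 tested genes called lower. The median log2 fold change was -1.37, a 2.58-fold fall, beside -0.013 over all tested genes. The fall exceeded 2-fold in 37 called members, beside 8.47% of all tested genes. It exceeded 4-fold in 12 called members, beside 198 of the 13277 tested genes. In 48 members every esculetin library lay below every control library, which held for 33.1% of all tested genes.

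Summed over the 53 genes, the control cells held 5988, 5419.8 and 5499 CPM and the esculetin cells 2647, 2161 and 1867 CPM, from 0.551% to 0.612% of all counts in the controls and 0.178% to 0.263% with esculetin. The groups were far apart on this sum (means ± SD of 5636 ± 308 and 2225 ± 394 CPM, n = 3). Relative to the control mean, the median member stood at -1.19, -1.43 and -1.60 log2 units in esculetin replicates 1, 2 and 3. Replicate 1 of the esculetin cells had the highest CPM of its group for 44 of the 53 genes. The libraries that held least mitotic RNA held most RNA of the macrophage list (Csf1r, Cd68, Lyz2, Itgam, Fcgr1, Spi1), which summed to 2077, 2302 and 2215 CPM in the controls and 4837, 5771 and 7435 CPM with esculetin. Of these 6 markers, 4 were called higher, beside 28.7% of all tested genes, and none was at 0. Lyz2 alone went from a mean of 638 CPM in the controls to 3496 CPM with esculetin. Cd68 and Fcgr1 were not called (edgeR adjusted p-values 0.121 and 0.561). The part of these markers in the mitotic fall was not tested. Longer transcripts had smaller falls across the members (rho 0.405, n = 53) and, more weakly, across all 13239 genes with a length (rho 0.105). Among the members, control replicate 1 deviated from its group mean with length in one direction (rho 0.435) and control replicates 2 and 3 in the other (-0.467 and -0.368). After a length trend was removed from each library, an alternative chosen after seeing the data, 50 members were still called lower with a median of -1.45.

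**Figure D1:**
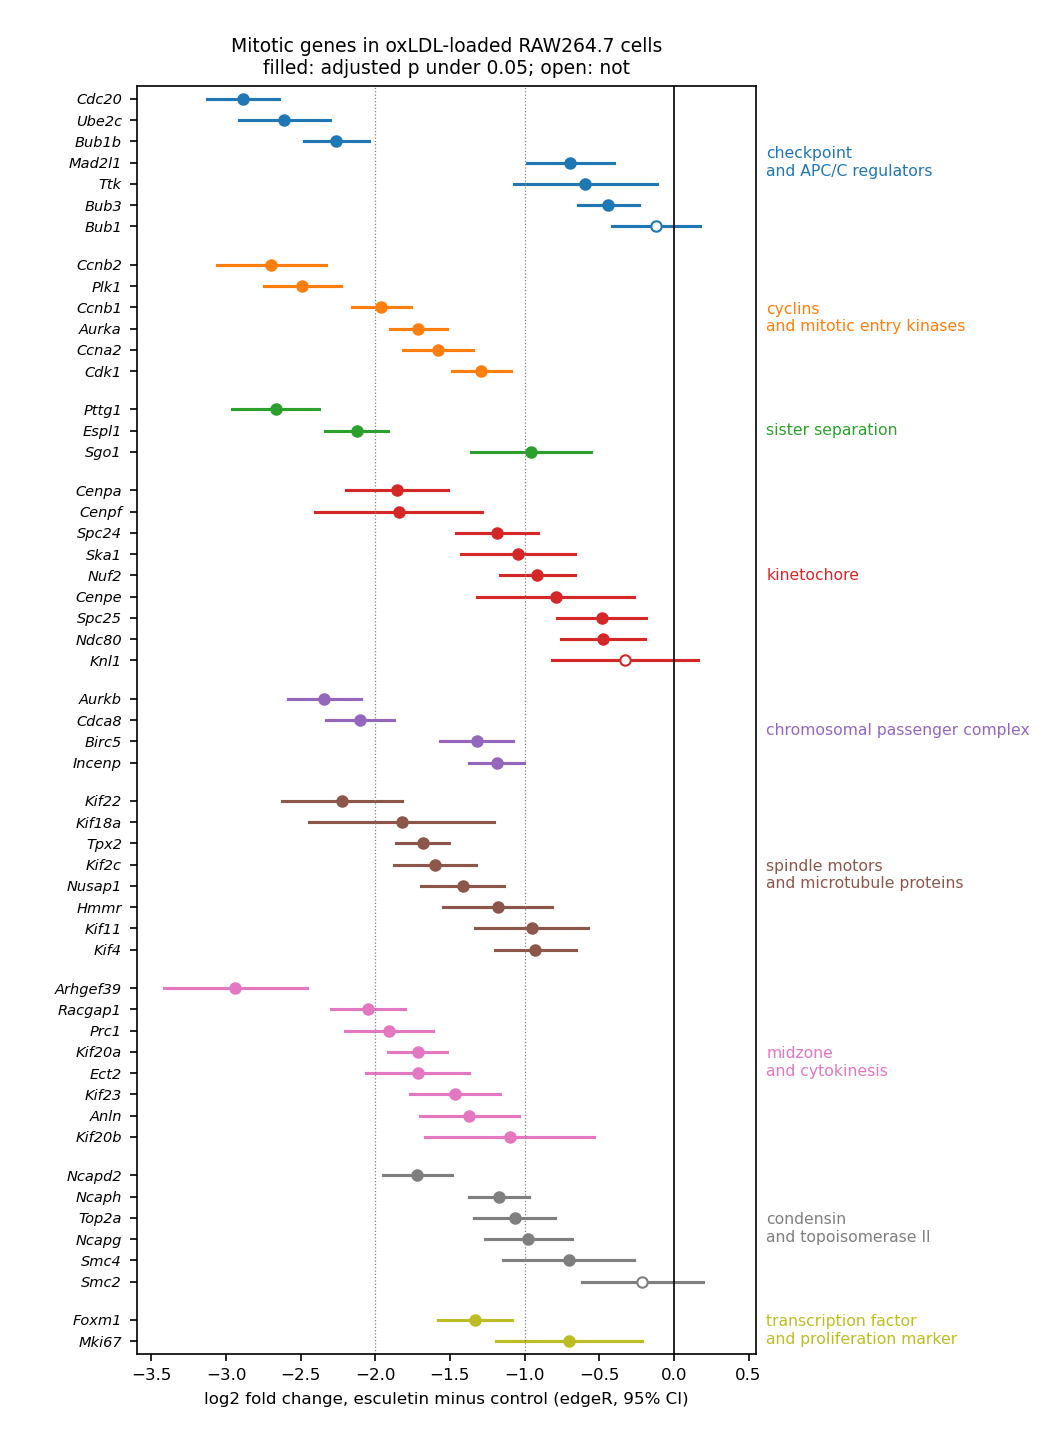
Log2 fold change (esculetin minus control, horizontal axis) of the 53 mitotic genes in the RAW264.7 cells, grouped and coloured by role. Points are edgeR estimates from 3 against 3 libraries, bars their 95% confidence intervals; filled points were called at an adjusted p-value under 0.05. All 53 points lie left of 0, from -2.94 for Arhgef39 to -0.12 for Bub1, and only Bub1, Knl1 and Smc2 are open.

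Among the checkpoint and APC/C genes, 6 of 7 were called lower, with a median of -0.69, and the group held both some of the largest falls and the smallest. Cdc20 (ENSMUSG00000006398, chromosome 4, 118290098 to 118294610), the activator that lets the APC/C start anaphase, stood at 138, 155 and 147 CPM in the controls and 21.4, 21.3 and 17.0 CPM under esculetin. The esculetin libraries lay close together and far below the controls, a 7.39-fold fall. Ube2c, the ubiquitin-conjugating enzyme that works with the APC/C, fell by 2.61 on the log2 scale. Bub1b (ENSMUSG00000040084, chromosome 2, 118428684 to 118472076), which encodes the checkpoint protein BubR1, stood at 199, 190.4 and 199.8 CPM in the controls and 46.3, 39.7 and 37.1 CPM under esculetin. It had a log2 change of -2.26 with an SE of 0.098 (adjusted p-value in edgeR 6.27e-08). Its paralogue Bub1 (ENSMUSG00000027379, chromosome 2, 127643036 to 127673806), a kinetochore kinase of the same checkpoint, stood at 138, 108 and 106 CPM in the controls and 125, 111 and 88.8 CPM under esculetin. These groups overlapped, and Bub1 was not called, with a log2 change of -0.12 with an SE of 0.13 (adjusted p-value in edgeR 0.475) and a 95% interval of -0.41 to 0.18. Without control replicate 1 or esculetin replicate 3 its estimate was 0.011 or 0.0032.

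The remaining checkpoint genes were called with smaller falls. Bub3, the partner that brings Bub1 and BubR1 to kinetochores, had a log2 change of -0.44 with an SE of 0.092 (adjusted p-value in edgeR 0.00180). Mad2l1, which encodes the inhibitor that binds Cdc20, fell by 0.69 on the log2 scale. Ttk, the kinase Mps1 at the top of the checkpoint, had an adjusted p-value of 0.0351 (edgeR) and overlapping groups. Its call was lost without control replicate 1 (adjusted p-value 0.198), esculetin replicate 2 (0.127) or esculetin replicate 3 (0.0872).

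All 6 cyclins and entry kinases fell, with a median of -1.84. Ccna2 (ENSMUSG00000027715, chromosome 3, 36619014 to 36626299), cyclin A2, stood at 145, 147 and 146 CPM in the controls and 56.5, 48.2 and 42.3 CPM under esculetin. Ccnb2 (ENSMUSG00000032218, chromosome 9, 70314966 to 70328874), a B-type cyclin, had the largest fall of the group and stood at 110.1, 118 and 117 CPM in the controls and 24.1, 15.3 and 14.2 CPM under esculetin. In both genes the 3 controls were nearly equal and every esculetin library lay well below them. Ccnb2 had a log2 change of -2.70 with an SE of 0.17 (adjusted p-value in edgeR 3.49e-07), and Ccna2 one of -1.58. Cdk1 (ENSMUSG00000019942, chromosome 10, 69170976 to 69236595), the kinase that cyclin B activates, had the smallest fall, at 91.3, 98.2 and 91.9 CPM in the controls and 39.4, 35.2 and 40.4 CPM under esculetin. That was a 2.44-fold fall (edgeR adjusted p-value 7.93e-07). Cyclin B1 (Ccnb1) fell by 1.96 on the log2 scale. The kinases Plk1 and Aurka drive entry and build the spindle poles; Plk1 fell by 2.49 and Aurka fell by 1.71.

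The 3 genes of sister separation were all called lower. Pttg1 (ENSMUSG00000020415, chromosome 11, 43311071 to 43321000), securin, the inhibitor of separase, stood at 53.1, 54.3 and 55.2 CPM in the controls and 10.3, 7.84 and 7.53 CPM under esculetin. Espl1 (ENSMUSG00000058290, chromosome 15, 102204701 to 102233535), separase itself, the protease that cuts cohesin, stood at 107, 120.4 and 109 CPM in the controls and 27.1, 26.6 and 23.5 CPM under esculetin. Neither gene had overlapping groups, and their log2 fold changes were -2.67 and -2.12 (edgeR adjusted p-values 1.11e-07 and 8.13e-08). Sgo1 (ENSMUSG00000023940, chromosome 17, 53981814 to 53999468), shugoshin, which protects centromeric cohesin, was the least changed of the 3, at 24.5, 17.5 and 16.5 CPM in the controls and 12.3, 8.86 and 9.03 CPM under esculetin. Its groups did not overlap, with a log2 change of -0.96 with an SE of 0.18 (adjusted p-value in edgeR 0.000974).

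Of 9 kinetochore genes, 8 were called lower, with a median of -0.91. Cenpa (ENSMUSG00000029177, chromosome 5, 30824121 to 30842921), the histone H3 variant that marks centromeres, had the largest fall, at 194, 193 and 196 CPM in the controls and 69.1, 52.3 and 40.3 CPM under esculetin. The controls were within a few CPM of each other and the esculetin libraries were spread out below them. It had a log2 change of -1.85 with an SE of 0.15 (adjusted p-value in edgeR 2.71e-06). Cenpf fell by 1.84 and the motor Cenpe by 0.79 on the log2 scale. Cenpe lost its call without control replicate 1 (edgeR adjusted p-value 0.0974) and in DESeq2 (0.0633). The 4 genes of the Ndc80 complex, which binds microtubules, fell unequally: Spc24 by 1.18, Nuf2 by 0.91, Spc25 by 0.48 and Ndc80 by 0.48. Ska1, of the complex that stabilises these attachments, fell by 1.04. Knl1 (ENSMUSG00000027326, chromosome 2, 118877598 to 118935982), the scaffold that recruits Bub1, was not called and stood at 45.1, 28.9 and 32.6 CPM in the controls and 37.9, 28.1 and 19.3 CPM under esculetin. Its groups overlapped, with a log2 change of -0.33 with an SE of 0.22 (adjusted p-value in edgeR 0.229) and a 95% interval of -0.82 to 0.16. Knl1 was called without esculetin replicate 1, at -0.59 (edgeR adjusted p-value 0.0168), and with no filter on low counts, at -0.37 (0.0135).

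The chromosomal passenger complex corrects faulty attachments and starts cytokinesis, and all 4 of its genes fell. Its kinase Aurkb (ENSMUSG00000020897, chromosome 11, 68936467 to 68944764) stood at 134, 132 and 134 CPM in the controls and 30.8, 22.8 and 25.2 CPM under esculetin. Its scaffold Incenp (ENSMUSG00000024660, chromosome 19, 9846569 to 9876924) was the least lowered, at 155, 176 and 166 CPM in the controls and 75.3, 71.8 and 71.6 CPM under esculetin. Both genes had groups that were tight and far apart. The log2 fold change was -2.34 for Aurkb and -1.19 for Incenp (edgeR adjusted p-values 8.74e-08 and 8.67e-07). Cdca8, borealin, fell by 2.11 and Birc5, survivin, by 1.32.

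All 8 spindle motors and microtubule proteins fell, with a median of -1.51. Tpx2 (ENSMUSG00000027469, chromosome 2, 152689854 to 152737245), which activates Aurora A on the spindle, stood at 192, 186 and 186 CPM in the controls and 61.5, 58.1 and 56.3 CPM under esculetin. Kif22 (ENSMUSG00000030677, chromosome 7, 126626898 to 126641643), a motor that pushes chromosome arms outward, had the largest fall, at 82.2, 96.9 and 94.0 CPM in the controls and 27.2, 16.6 and 15.0 CPM under esculetin. Kif4 (ENSMUSG00000034311, chromosome X, 99669343 to 99770946), a chromosome-bound motor, had the smallest, at 40.1, 36.1 and 34.5 CPM in the controls and 19.2, 22.0 and 17.1 CPM under esculetin. None of the 3 had overlapping groups, and their log2 fold changes were -1.68, -2.22 and -0.93 (edgeR adjusted p-values 9.76e-08, 2.57e-06 and 7.43e-05). Kif18a, which dampens chromosome movements, Kif2c, which depolymerises microtubules, and Kif11, which pushes the poles apart, fell by 1.82, 1.60 and 0.95. The microtubule-associated Nusap1 and Hmmr fell by 1.42 and 1.18.

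All 8 genes of the midzone and cytokinesis fell, with a median of -1.72. Anln (ENSMUSG00000036777, chromosome 9, 22242402 to 22300501), anillin, a scaffold of the contractile ring, stood at 231, 192 and 188 CPM in the controls and 99.0, 75.0 and 62.6 CPM under esculetin. Arhgef39 (ENSMUSG00000051517, chromosome 4, 43496139 to 43499695), a guanine nucleotide exchange factor, stood at 43.0, 47.5 and 44.3 CPM in the controls and 8.78, 5.04 and 4.02 CPM under esculetin. This was the largest fall of all 53 genes, with a log2 change of -2.94 with an SE of 0.22 (adjusted p-value in edgeR 1.24e-06) and a 95% interval of -3.42 to -2.46. The place of Arhgef39 in this role group was set by the listing, and its role was not tested. Kif20b (ENSMUSG00000024795, chromosome 19, 34899752 to 34953149), a kinesin of late cytokinesis, fell least, at 69.8, 43.7 and 49.3 CPM in the controls and 37.4, 22.8 and 16.2 CPM under esculetin. Its highest esculetin library was only slightly below its lowest control, and it fell by 1.10 (edgeR adjusted p-value 0.00347). Racgap1 and Kif23 form centralspindlin, which places the cleavage furrow, and fell by 2.05 and 1.47. Ect2, the RhoA activator that centralspindlin recruits, fell by 1.72, the bundling protein Prc1 by 1.91 and the motor Kif20a by 1.72. Exons of Kif20a overlap those of Cdc23 on the opposite strand over 2748 bases, and strand use in counting was not stated, so reads of this pair may be mixed. In all, 21 of the 53 genes share exon bases with a gene on the opposite strand.

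Of the 6 condensin and topoisomerase genes, 5 were called lower. Top2a (ENSMUSG00000020914, chromosome 11, 98883769 to 98915062), the topoisomerase that untangles chromatids, stood at 449, 352 and 357 CPM in the controls and 214, 177 and 163 CPM under esculetin. Ncapd2 (ENSMUSG00000038252, chromosome 6, 125144962 to 125169080), a regulatory subunit of condensin I, had the largest fall, at 185, 200.1 and 206 CPM in the controls and 68.7, 58.5 and 52.9 CPM under esculetin. Both were clearly separated between the groups, with log2 fold changes of -1.07 and -1.72 (edgeR adjusted p-values 2.74e-05 and 3.46e-07). Smc2 (ENSMUSG00000028312, chromosome 4, 52439214 to 52488264), the core ATPase shared by both condensins, stood at 98.3, 69.1 and 71.8 CPM in the controls and 90.3, 64.1 and 52.5 CPM under esculetin. Its groups overlapped, and it was not called, with a log2 change of -0.21 with an SE of 0.19 (adjusted p-value in edgeR 0.347) and a 95% interval of -0.62 to 0.19. Without esculetin replicate 1 Smc2 was called, at -0.45 (edgeR adjusted p-value 0.0175). Its partner ATPase Smc4 fell by 0.71, a call lost without control replicate 1 (edgeR adjusted p-value 0.0731). The other condensin I subunits Ncaph and Ncapg fell by 1.17 and 0.97.

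Foxm1 (ENSMUSG00000001517, chromosome 6, 128339518 to 128353147), the transcription factor that drives many genes of this set, stood at 104, 109 and 114 CPM in the controls and 51.1, 41.8 and 37.4 CPM under esculetin. Its groups did not overlap, with a log2 change of -1.33 with an SE of 0.11 (adjusted p-value in edgeR 3.06e-06). Mki67 (ENSMUSG00000031004, chromosome 7, 135291513 to 135318299), which encodes the proliferation marker Ki-67, stood at 488, 342 and 383 CPM in the controls and 345, 242 and 159.5 CPM under esculetin. Esculetin replicate 1 reached above the lowest control, and Mki67 was called with a log2 change of -0.70 with an SE of 0.22 (adjusted p-value in edgeR 0.0186). That call was lost in DESeq2 (adjusted p-value 0.0796), and in edgeR on dropping control replicate 1 (0.111) or esculetin replicate 2 (0.0603). The fall of Mki67 was less firmly measured than that of Foxm1.

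**Figure D2:**
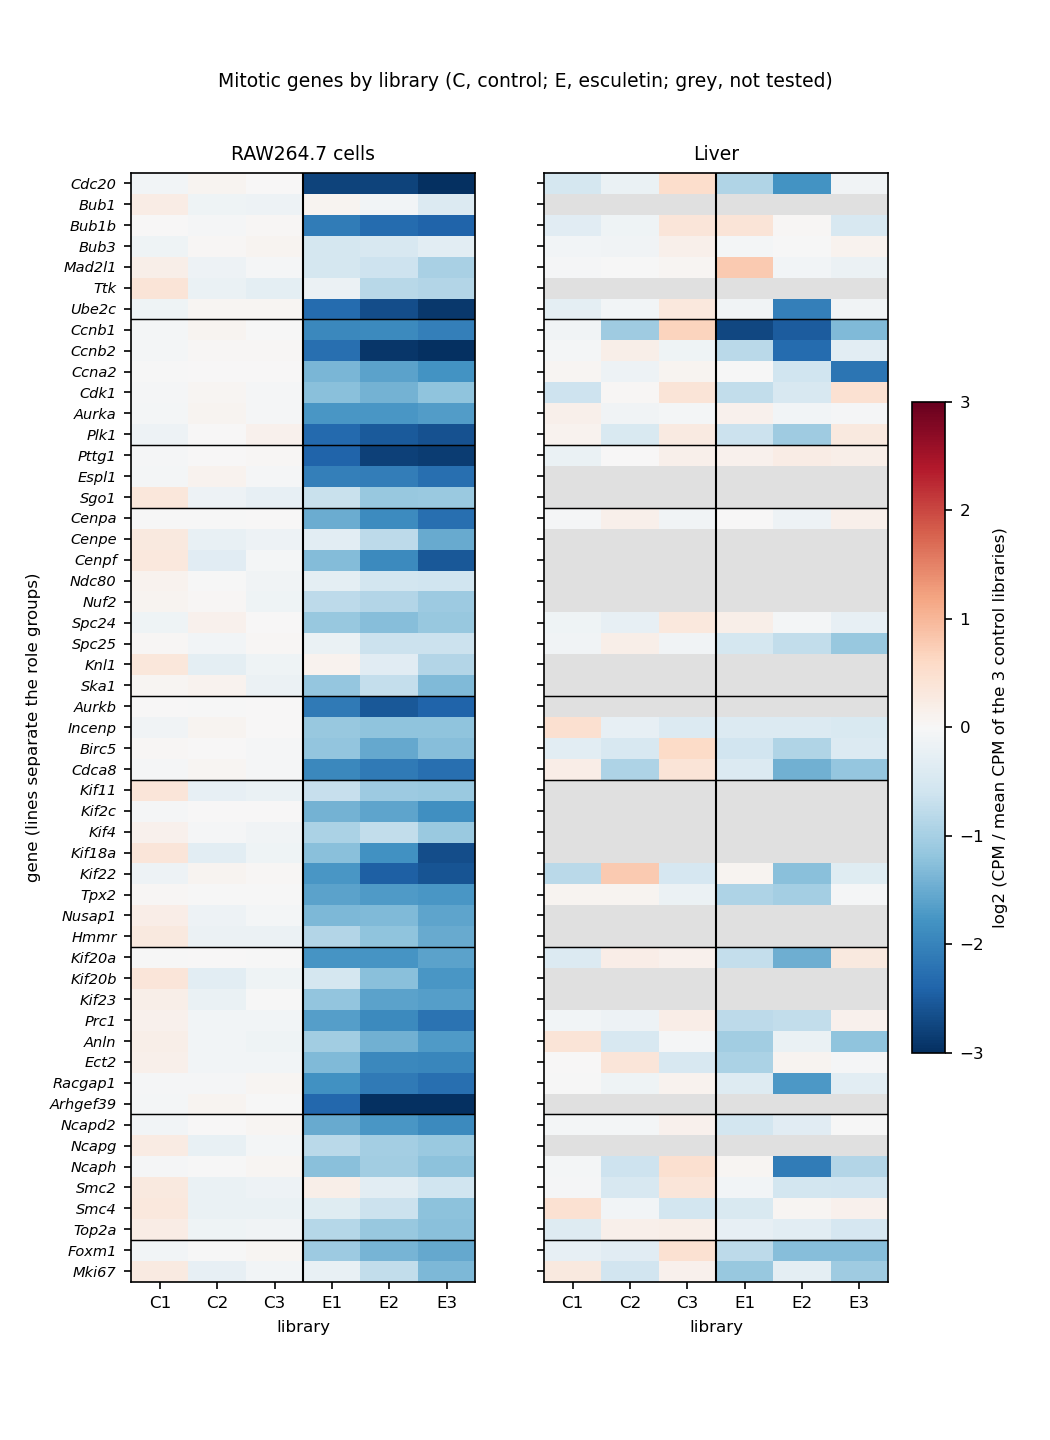
CPM of each mitotic gene (rows, in role groups) in each library (columns; C, control; E, esculetin; replicates 1 to 3), as log2 of its ratio to the mean of the 3 control libraries of the same table. Colours saturate at -3 and 3, and grey rows were not tested in the liver. In the cells the esculetin columns are blue for nearly all genes, with Bub1, Knl1 and Smc2 slightly above the control mean in replicate 1; in the liver shades vary within both groups.

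Because the falls were unequal, the balance between genes that act together differed between the groups. The pairs below were chosen after their values were seen, so the ratios of CPM are a description without a test; 3 against 3 libraries cannot give an exact two-sided permutation p-value below 0.1. Bub1b to Bub1 was 1.45, 1.77 and 1.89 in the controls and 0.371, 0.359 and 0.418 under esculetin. Ncapd2 to Smc2 was 1.88, 2.90 and 2.87 in the controls and 0.761, 0.912 and 1.01 under esculetin, and Aurkb to Incenp was 0.861, 0.747 and 0.806 in the controls and 0.409, 0.318 and 0.352 under esculetin. Ccnb1 to Cdk1, a cyclin to its kinase, was 1.10, 1.13 and 1.13 in the controls and 0.694, 0.797 and 0.628 under esculetin. Within the Ndc80 complex, Spc24 to Ndc80 was 0.839, 1.08 and 1.07 in the controls and 0.549, 0.601 and 0.683 under esculetin. In these 5 pairs, and in the other 5 of the 10 that were computed, the esculetin libraries lay below all control libraries. By the ratio of group means, the widest of the 10 was Cdc20 to Bub3, at 0.942, 0.949 and 0.872 in the controls and 0.194, 0.187 and 0.132 under esculetin.

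**Figure D3:**
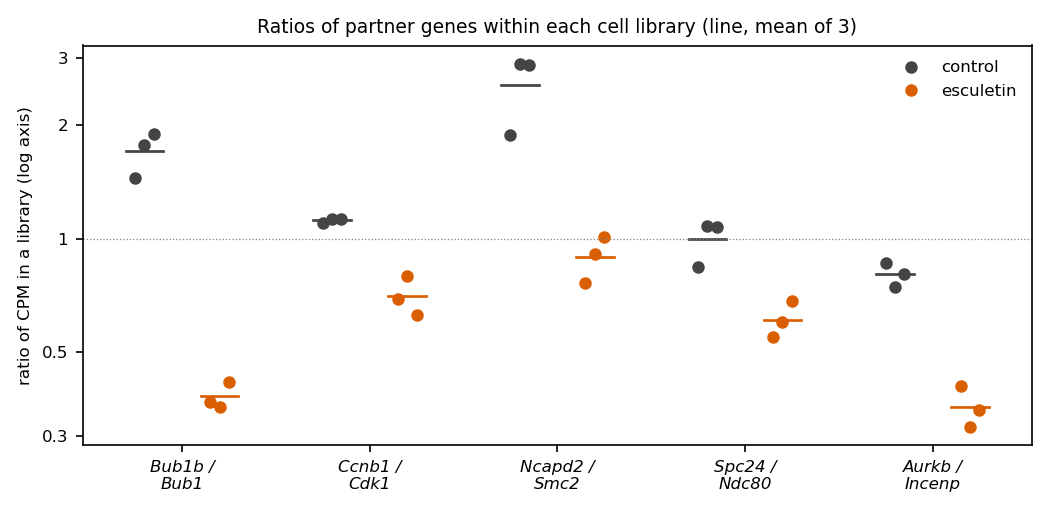
Ratio of the CPM of paired mitotic genes within each RAW264.7 library (vertical log axis). Points are single libraries, 3 controls (grey) and 3 with esculetin (orange), and lines are group means. Every orange point lies below every grey point of its pair, for example 0.359 to 0.418 against 1.45 to 1.89 for Bub1b to Bub1.

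On a scale of CPM per kilobase of the canonical transcript, which allows levels of different genes to be compared, Ube2c (152), Cenpa (133) and Cdc20 (79.1) were the highest members in the control cells. With esculetin the highest were Cenpa (36.8), Top2a (35.2) and Bub1 (31.3). Cdc20 moved from rank 3 to rank 26 of 53 and Bub1 from rank 23 to rank 3. The lowest were Knl1 in the controls (4.49) and Kif18a with esculetin (1.62).

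Promoters were examined because these genes fell together and many late cell cycle promoters are known to carry a cell cycle genes homology region (CHR), bound by the MuvB complexes, and CCAAT boxes, bound by NF-Y. Promoter windows of 300 bases from RefSeq (GRCm38.p6), 250 before and 50 after the start, were present for 44 of the 53 members. Ccna2, Spc24, Ska1, Aurkb, Incenp, Tpx2, Kif20a, Smc4 and Foxm1 had no entry. Each of the 44 matched the GRCm39 genome at a single place, a median of 26.5 bases from the canonical transcript start. The windows are shown for the 3 genes with the largest falls and the 2 nearest to no change. They read 5′ to 3′, with CHR (TTTGAA) and CCAAT on either strand in capitals, and lie on GRCm39 at chr4:43508698-43508997, minus strand (Arhgef39), chr4:118294491-118294790, minus strand (Cdc20), chr9:70328787-70329086, minus strand (Ccnb2), chr2:127673730-127674029, minus strand (Bub1) and chr4:52438971-52439270, plus strand (Smc2). The RefSeq start of Arhgef39 lies 9052 bases from its canonical start, so its window is not that of the canonical promoter.
Arhgef39: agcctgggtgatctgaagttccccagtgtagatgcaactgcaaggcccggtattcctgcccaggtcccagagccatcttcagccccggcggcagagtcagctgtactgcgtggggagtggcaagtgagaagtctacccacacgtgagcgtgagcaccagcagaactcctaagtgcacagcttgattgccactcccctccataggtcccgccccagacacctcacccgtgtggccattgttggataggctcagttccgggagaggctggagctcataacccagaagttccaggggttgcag
Cdc20: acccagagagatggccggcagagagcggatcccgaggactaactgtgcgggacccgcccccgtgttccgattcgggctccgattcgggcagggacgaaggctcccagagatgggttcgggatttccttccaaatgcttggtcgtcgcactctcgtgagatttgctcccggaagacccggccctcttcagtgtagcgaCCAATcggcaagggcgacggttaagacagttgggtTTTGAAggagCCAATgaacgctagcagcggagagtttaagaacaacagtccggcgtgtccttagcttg
Ccnb2: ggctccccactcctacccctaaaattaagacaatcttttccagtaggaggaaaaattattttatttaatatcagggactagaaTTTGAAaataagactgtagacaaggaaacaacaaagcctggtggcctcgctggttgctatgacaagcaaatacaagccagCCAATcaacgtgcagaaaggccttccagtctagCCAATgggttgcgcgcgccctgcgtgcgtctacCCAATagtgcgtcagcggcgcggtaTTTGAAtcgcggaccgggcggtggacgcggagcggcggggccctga
Bub1: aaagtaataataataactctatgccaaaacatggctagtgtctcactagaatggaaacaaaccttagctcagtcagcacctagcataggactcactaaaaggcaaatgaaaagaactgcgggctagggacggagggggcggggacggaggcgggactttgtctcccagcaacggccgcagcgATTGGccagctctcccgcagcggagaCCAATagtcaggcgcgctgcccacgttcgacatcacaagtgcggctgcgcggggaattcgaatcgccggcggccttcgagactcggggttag
Smc2: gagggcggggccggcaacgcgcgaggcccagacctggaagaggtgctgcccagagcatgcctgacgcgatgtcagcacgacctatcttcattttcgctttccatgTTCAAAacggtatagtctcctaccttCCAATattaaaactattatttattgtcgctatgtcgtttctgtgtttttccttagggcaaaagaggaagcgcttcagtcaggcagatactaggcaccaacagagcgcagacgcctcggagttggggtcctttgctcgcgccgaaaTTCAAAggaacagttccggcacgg

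The Cdc20 window held a CHR whose first base lies 18 bases before the start, and that of Ccnb2 held 2 CHR matches and 3 CCAAT boxes. The Arhgef39 window held neither motif. The Bub1 window held 2 CCAAT boxes and no TTTGAA, while that of Smc2, which was not called, held both motifs. Searched on both strands, TTTGAA occurred in 32 of the 44 member windows (72.7%) and in 17.9% of all 32851 windows of this length. CCAAT occurred in 70.5% of member windows against 37.4%, and both together in 27 members (61.4%) against 6.95%. The E2F core TTGGCGC was in 15.9% against 2.45%, and the CDE-like GGCGGGA in 22.7% against 11.3%. The 2 sides of these comparisons were chosen unlike each other. Each member kept only its window nearest to the canonical start, while the 32851 windows were used without such a choice. The start of the Kif2c window, counted among those with CHR, lies 3867 bases from its canonical start. None of the 4 motifs holds another, though a CCAAT read on the reverse strand and TTGGCGC can share letters. A match is a description of the sequence, not a shown binding site. As a description, the median log2 fold change in the cells was -1.72 for the 27 members with both CHR and CCAAT and -1.17 for the 17 without. It was -1.53 with and -1.25 without CHR, -1.71 and -1.32 for CCAAT, and -1.72 and -1.37 for TTGGCGC. For GGCGGGA it went the other way, at -1.21 with and -1.53 without.

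A further 142 genes of mitosis outside the set, also listed by name, moved less uniformly in the cells. Of these, 85 were called lower (59.9%) and 15 higher, with a median of -0.45, where 29% of all tested genes were called lower and 28.7% higher. Genes of G2/M entry and late cell cycle came closest to the 53, with 20 of 24 called lower and a median of -1.41. In this list Depdc1b, a late cell cycle gene, went from 14.6 ± 0.154 to 2.35 ± 0.446 CPM (SD, n = 3), while Ensa, an inhibitor of the phosphatase that opposes Cdk1, went from 110.2 ± 5.96 to 322 ± 12.4 CPM. The log2 changes of this pair were -2.64 and 1.55, at adjusted p-values (edgeR) of 6.20e-07 and 1.55e-07. Other spindle and augmin genes had 18 of 29 called lower and 0 higher, from -2.08 for the kinesin Kif14 to -0.34 for Ckap5. Other kinetochore, centromere and checkpoint genes had 22 of 34 lower and 3 higher, from -2.19 for Cenpm to 1.75 for Cenpb, which binds centromeric repeats.

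The other lists were mixed. Of 17 APC/C genes, 7 were called lower and 3 higher, from -0.96 for the APC/C inhibitor Fbxo5 to 0.53 for the subunit Cdc27. Of 17 cohesin and condensin II genes, 5 were lower and 4 higher, with a median of 0.012, so the share called lower (29.4%) was near that of all tested genes. These ran from -1.54 for the cohesin protector Sgo2a to 0.88 for the acetyltransferase Esco1. Among 21 MuvB, B-Myb, E2F, pocket protein and NF-Y genes, 13 were lower and 3 higher. E2f2 had the largest fall, at -1.88, and the NF-Y subunit Nfyc the largest rise, at 1.22.

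The liver held little RNA of most mitotic genes. Summed over the 53 genes, control livers had 141, 139 and 168 CPM and esculetin livers 144, 133 and 140.0 CPM, and the groups overlapped. Of that sum, 57.5% to 69.8% came from Bub3, Pttg1 and Spc24. Per kilobase, Pttg1 stood at 40.6 CPM in the control livers and Spc24 at 18.9, whereas Bub3 stood at 4.37 and Spc25 at 4.27. In the control cells these genes stood at 71.1 (Pttg1), 15.2 (Spc24), 21.9 (Bub3) and 18.9 (Spc25). Spc24 was thus no lower in the control livers than in the control cells. Only 32 members passed the count filter, and the other 21, with 0 to 23 counts per library, were not tested. Of the 32, 0 were called in either direction by edgeR, beside 0.0546% of the 12813 tested genes called lower. At an unadjusted p-value under 0.05, 3 were lower and 0 higher, where 4.98% of all tested genes were lower, and DESeq2 also called 0. The median log2 fold change was -0.42, beside -0.020 over all tested genes. Of the 32 estimates, 26 lay below 0, beside 6854 of the 12813 tested genes. In 6 members all esculetin livers lay below all controls, beside 7.95% of all tested genes.

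The 3 liver genes with an unadjusted p-value under 0.05 were Ccnb1, Spc25 and Foxm1. Ccnb1 stood at 1.35, 0.691 and 2.33 CPM in the controls and 0.218, 0.260 and 0.582 CPM under esculetin, from 14 to 40 counts per control library and 4 to 9 with esculetin. The groups did not overlap, with a log2 change of -2.03 with an SE of 0.56 (adjusted p-value in edgeR 0.309). Spc25 stood at 5.47, 6.61 and 5.48 CPM in the controls and 4.03, 3.51 and 2.65 CPM under esculetin, again without overlap, with a log2 fold change of -0.78 (edgeR adjusted p-value 0.332). Exons of Spc25 share 3693 bases with Nostrin on the other strand, so its counts may include reads of that gene. Foxm1 stood at 0.799, 0.740 and 1.28 CPM in the controls and 0.545, 0.390 and 0.388 CPM under esculetin, with a log2 fold change of -1.06 (edgeR adjusted p-value 0.555). None of the 3 passed the adjusted threshold.

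The next smallest p-values in the liver belonged to Cdca8, Ccnb2, Cdc20, Mki67 and Racgap1. Ccnb2 stood at 0.921, 1.09 and 0.874 CPM in the controls and 0.545, 0.195 and 0.776 CPM under esculetin, and Racgap1 at 1.29, 1.18 and 1.40 CPM in the controls and 0.981, 0.390 and 1.04 CPM under esculetin; neither had overlapping groups. Cdca8 stood at 1.84, 0.839 and 2.10 CPM in the controls and 1.20, 0.584 and 0.712 CPM under esculetin, Cdc20 at 1.41, 1.78 and 2.91 CPM in the controls and 1.09, 0.584 and 1.88 CPM under esculetin and Mki67 at 1.17, 0.641 and 1.05 CPM in the controls and 0.436, 0.779 and 0.453 CPM under esculetin, with overlap in all 3. Their log2 fold changes were -0.92, -0.67, -0.90, -0.78 and -0.77, and the edgeR adjusted p-values ran from 0.629 to 0.686. Of the 21 untested genes, 15 had a lower mean CPM with esculetin, beside 6854 of the 12813 tested genes with an estimate below 0. In 2 of the 21 all esculetin livers lay below all controls, a share near the 7.95% of all tested genes. Among those 2, Aurkb had 18, 8 and 22 counts in the controls and 4, 6 and 5 with esculetin, an example chosen after its values were seen.

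Estimates above 0 were found in the liver for 6 members. Pttg1 stood at 26.8, 31.4 and 34.7 CPM in the controls and 33.7, 36.0 and 35.1 CPM under esculetin, with a log2 fold change of 0.17 and a 95% interval of -0.11 to 0.46. Bub3 stood at 30.3, 29.7 and 35.4 CPM in the controls and 30.6, 31.5 and 34.0 CPM under esculetin, with an estimate of 0.011 and an interval of -0.26 to 0.28. The intervals of both genes lay within a change of 2-fold either way. Mad2l1 stood at 3.07, 3.11 and 3.26 CPM in the controls and 5.40, 2.99 and 2.78 CPM under esculetin, where esculetin replicate 1 was the highest library. Its estimate was 0.25, and those of Bub1b, Aurka and Cenpa were 0.033, 0.0094 and 0.0076. Bub1b ran from 0.777 to 1.42 CPM, Aurka from 5.23 to 6.33 and Cenpa from 4.35 to 5.44 over the 6 livers, with overlapping groups. The signs of Bub1b, Bub3, Mad2l1, Aurka and Cenpa were not stable to the processing, as given in the closing section.

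Cells that divide in or pass through a liver can carry mitotic RNA, so marker lists were set beside these values. Of the B cell genes, Cd79b stood at 1.04, 1.97 and 1.92 CPM in the control livers and 0.327, 1.17 and 0.582 CPM with esculetin, with a log2 change of -1.27 (unadjusted p-value 0.0191, edgeR adjusted p-value 0.497). Cd79a stood at 1.04, 1.38 and 1.57 CPM and 0.545, 0.649 and 1.42 CPM (log2 change -0.62, edgeR adjusted p-value 0.716). Both were lower on average with esculetin, and both had overlapping groups. The T and NK cell list summed to 2.70, 2.17 and 4.25 CPM in the control livers and 3.11, 3.12 and 3.04 CPM with esculetin, and the erythroid list to 164, 778 and 431 CPM and 299, 274 and 523 CPM. A Kupffer cell list summed to 297, 319 and 345 CPM and 309.6, 289 and 271 CPM, and the macrophage list to 131, 156 and 176 CPM and 151, 142 and 138 CPM, with 0 genes of either called by edgeR (1 and 2 genes lower at an unadjusted p-value under 0.05). Over the 6 livers, the granulocyte list ranged from 0.844 to 1.57 CPM, the endothelial list from 133 to 154, the stellate and fibroblast list from 170.0 to 208, the cholangiocyte list from 13.6 to 23.1 and the adipocyte list from 4.24 to 39.2, each with overlapping groups. At an unadjusted edgeR p-value under 0.05, Marco, Csf1r, Cd68 and Sox9 were also lower, without overlap (log2 change -0.77, -0.28, -0.50 and -0.70). The hepatocyte genes Cps1 and Ass1 and the erythroid gene Klf1 were higher, also without overlap (0.41, 0.43 and 0.72). None of them was called by edgeR, and 14.5% of all tested liver genes had no overlap. Other genes of these lists varied in direction. Alb was at -0.16, Ttr at -0.23 (without overlap), Apoa1 at 0.074 and Cyp2e1 at 0.30. Hba-a1 was at -0.82, Hbb-bs at -0.85 and Alas2 at 0.21. Krt19 was at 0.0085, Krt7 at 0.15 and Epcam at -0.32. Vsig4 was at 0.019 and Lyz2 at 0.11. The part of these cell types in the liver values was not tested. Longer transcripts had lower log2 fold changes across all liver genes (rho -0.302), but across the 32 members rho was 0.0418. The other 142 mitotic genes had 100 tested in the liver, of which 0 were called by edgeR and 9 had an unadjusted p-value under 0.05 (8 lower), with a median of 0.0016; DESeq2 called 1.

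Whether the effect in the cells differed from that in the liver was tested directly, in a model of all 12 libraries. Of the 32 members tested in both tables, 21 had a lower effect in the cells at an adjusted p-value under 0.05 and 0 a higher one, beside 19.4% of the 10449 genes tested in both tables. Pttg1 had the largest difference, at -2.88 (SE 0.19, edgeR adjusted p-value 1.42e-07): securin RNA fell 6.36-fold in the cells and had an estimate above 0 in the liver. Bub1b differed by -2.34 (SE 0.31, edgeR adjusted p-value 5.02e-05), Aurka by -1.77 (SE 0.18, edgeR adjusted p-value 5.47e-06) and Cenpa by -1.90 (SE 0.25, edgeR adjusted p-value 5.86e-05). The smallest called difference was that of Bub3, at -0.49 (SE 0.16, edgeR adjusted p-value 0.0277). Exons of Pttg1 share 220 bases with Slu7 on the opposite strand, and those of Aurka share 984 with Fam210b and 293 with Cstf1, so reads may be mixed there too. Liver esculetin replicate 3 mattered to this count, which was 13 without it, and 14 without liver esculetin replicate 1.

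For 11 members the difference was not called: Ccnb1, Ccna2, Spc25, Birc5, Anln, Ncaph, Smc2, Smc4, Top2a, Foxm1 and Mki67. Ccnb1 had an estimate of -1.96 in the cells and -2.03 in the liver, each from its own table, and in the joint model a difference of 0.033 with a 95% interval of -0.79 to 0.86. Foxm1 differed by -0.32 (-1.16 to 0.52) and Mki67 by 0.025 (-1.08 to 1.13). Intervals this wide do not show that the effects were alike. Dose, route, duration and vehicle of treatment differed between the tables, and a liver library holds few mitotic counts. Only the cells had oxLDL, only the mice had the high-fat diet, and a cultured line was set against pooled whole tissue. Cell type cannot be told apart from these other differences here.

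**Figure D4:**
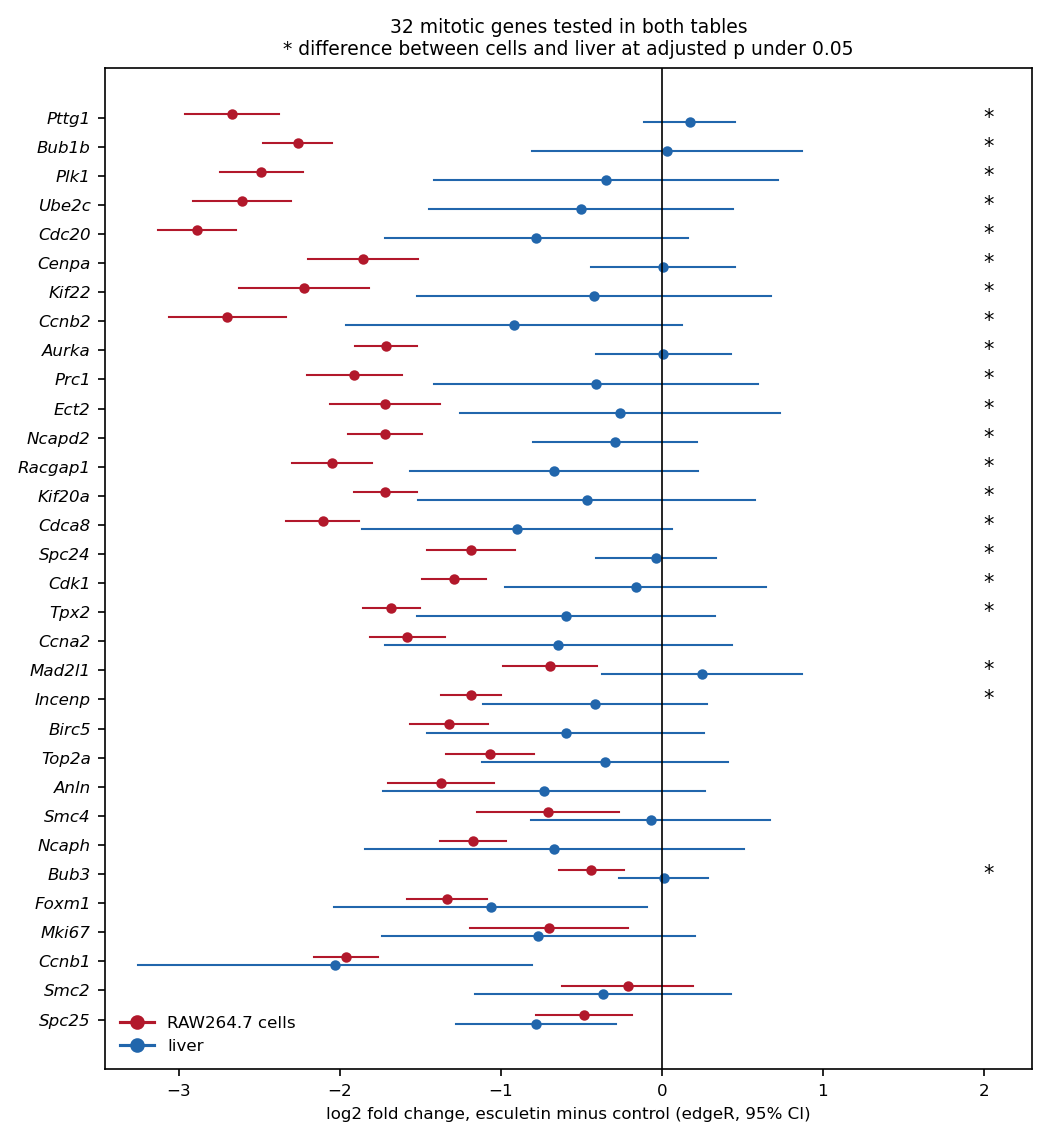
Log2 fold change (esculetin minus control, horizontal axis) of the 32 mitotic genes tested in both tables, in the RAW264.7 cells (red) and the liver (blue), sorted by the difference between them. Points are edgeR estimates from 3 against 3 libraries, bars 95% confidence intervals, and asterisks mark the 21 genes whose difference was called. All red points lie left of 0, while the blue intervals of most genes cross it and exclude it for Ccnb1, Spc25 and Foxm1.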

How the data were processed

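RNA was measured by paired-end sequencing in 6 RAW264.7 and 6 liver libraries. The deposited values are raw counts per Ensembl gene in 1 table for the cells and 1 for the liver. The authors made these counts by aligning reads with HISAT2 (2.2.1) and counting with featureCounts. Their processing notes name GRCm39 and also mm10, and strand setting, treatment of multimapped reads and annotation release are not given in the sources used here. Of the 55357 identifiers, 608 were not matched in the GENCODE annotation (GRCm39) used for names, positions and lengths.

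Each table was tested with edgeR (4.0.16) by quasi-likelihood F-test after its default expression filter and TMM scaling, with Benjamini-Hochberg adjustment over all genes tested and a threshold of 0.05. The difference between cells and liver was a contrast in 1 model of all 12 libraries. Alternatives used DESeq2 (1.42.0), limma (3.58.1), other scalings, other filters, the replicate number as a block, and each library left out in turn. A length correction was added after seeing the data. Scripts were tested on simulated data. Intervals are 95% confidence intervals from edgeR.

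The members, the lists and the rule for named genes were chosen with earlier results of these data known. In the cells, single-library values were given per role group for the highest control CPM, the most negative fold change, the fold change nearest to 0 and every gene not called. In the liver they were given for the 8 smallest p-values and fold changes above 0. Among other mitotic genes, the extremes of those called in a list were named. The sum of 1 liver marker list (B cell) is not reported here.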

Additional observations from a re-analysis of the deposited data

Results flagged for a closer look

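A total of 21 mitotic genes had an effect of esculetin in the RAW264.7 cells that differed from its effect in the liver, by the edgeR quasi-likelihood test of the difference over all 12 libraries (adjusted p-value under 0.05, 32 members tested in both tables). The differences are log2 fold change in the cells minus log2 fold change in the liver. Among checkpoint genes, cyclins, kinases and securin they were Cdc20 at -2.14, Bub1b at -2.34, Bub3 at -0.49, Mad2l1 at -0.99, Ube2c at -2.15, Ccnb2 at -1.81, Cdk1 at -1.16, Aurka at -1.77, Plk1 at -2.18 and Pttg1 at -2.88. Among genes of the kinetochore, passenger complex, spindle, midzone and condensin they were Cenpa at -1.90, Spc24 at -1.19, Incenp at -0.82, Cdca8 at -1.27, Kif22 at -1.83, Tpx2 at -1.12, Kif20a at -1.28, Prc1 at -1.53, Ect2 at -1.48, Racgap1 at -1.42 and Ncapd2 at -1.47. In all 21 the effect was lower in the cells. Groups of 3 libraries are too small for a search for outlying libraries.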

How the results depend on the processing

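Every alternative to the reported processing kept the direction of the mitotic fall in the RAW264.7 cells. The members called there ran from 46 to 52 when single libraries were left out (46 without control replicate 1), and were 47 to 51 otherwise. Of the comparisons of single member genes in the cells, 830 kept direction and call, 12 lost the call, 4 gained it and 2 reversed, both for Bub1 (0.011 without control replicate 1 and 0.0032 without esculetin replicate 3, over a leave-out range of -0.23 to 0.011). In the liver, the 0 called members became 1 with no filter on low counts (53 tested, with 339 of all 22343 genes called). They became 3 under the study's thresholds (p under 0.05 and over 1.5-fold) in limma-voom, with 499 of all 12813 called, against 11 in edgeR. The study named limma and these thresholds, while voom, the filter and the scaling were chosen here, so its own analysis was not reproduced. The 0 other mitotic genes called in the liver became 2 with no filter, 1 in DESeq2, 6 under the study's thresholds in limma-voom and 0 to 1 with single libraries left out. The liver median moved from -0.42 (32 members tested) to -0.30 at a minimum of 1 CPM in 3 libraries (19 members tested). It ranged from -0.59 to -0.31 with single libraries left out (33 to 36 members tested). These medians are thus over different sets of genes. The 21 called differences between cells and liver ranged from 13 to 21 with single libraries left out (13 without liver esculetin replicate 3). On all 12 libraries they were 17 in limma-voom and 22 in DESeq2. The cause of these shifts was not tested.

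Liver estimates just above 0 reversed. With library size only, Bub1b was -0.020, Bub3 -0.051, Aurka -0.061 and Cenpa -0.057. With the 1 CPM filter, Bub3 was -0.0050, Aurka -0.0090 and Cenpa -0.0082, and with the length trend removed (chosen after seeing the data) Cenpa was -0.083. With single libraries left out, Bub1b ranged from -0.21 to 0.24, Bub3 from -0.047 to 0.077, Mad2l1 from -0.14 to 0.41, Aurka from -0.068 to 0.10 and Cenpa from -0.084 to 0.088. In the liver, 21 members had too few counts to test, in libraries about as deep as those of the cells.

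With the replicate number as a block, 51 members were called in the cells (Knl1 was gained, at -0.35 with 0.0414 as its adjusted p-value in edgeR), 0 in the liver and 22 differences between them, and 1 other mitotic gene was called in the liver. Same-numbered libraries did not all deviate together (correlations of deviations from the group means of 0.188, -0.039 and 0.107 for replicates 1, 2 and 3 in the cells and 0.153, -0.0079 and 0.112 in the liver), so the numbers were not taken as pairs.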
